A study of Mus musculus with 6 samples.

Results

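The integrins, numbered cadherins and claudins are cell surface proteins by which cells hold on to matrix and to each other. Their genes were taken from the liver expression table by symbol: the integrin alpha and beta chains, the cadherins named by a number and the claudins, with the vascular Cdh5 left out. This gave 60 genes of the 17460 listed, made up of 18 integrin alpha chains, 8 integrin beta chains, 16 cadherins and 18 claudins. All 60 passed the filter on low values, which kept 17297 genes.

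RNA came from whole livers of 6 C57BL/6 mice aged 9 months and fed a NASH diet, rich in fructose, trans fats and cholesterol, for 24 weeks. Livers 1 to 3 of the control group were compared with livers 1 to 3 of the Blnc1 LKO group, in which the lncRNA Blnc1 was targeted in the liver. According to the study's methods, LKO mice were Cas9 transgenic animals given, by tail vein, an adenovirus that expressed a pair of sgRNAs against Blnc1. The vector given to the control mice of this feeding experiment is not given in the sources used here. Cas9 is constitutive in these animals, so the adenovirus sets which cells are edited, and non-parenchymal cells, which carry many integrins, are poorly transduced by it. Blnc1 is not a row of its own in the table, and its loss was not measured here.

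The livers had 65384969 to 89350181 reads on the listed genes, of which 0.131% to 0.155% fell on the 60 members. Values below are normalized counts, that is reads divided by the size factor of the liver. Levels of different genes are compared as RPKM, reads per kilobase of exon scaled to the reads of the liver, while mean counts serve only to sort members by how many reads lie behind them. The 5 hepatocyte markers measured summed to 5069928 to 6174541 in each liver, and no marker of the cholangiocyte, macrophage, endothelial or stellate lists was at 0 in any liver. The labels say no more of the replicates than their number, so p-values measure the spread between these livers.

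An integrin is a heterodimer of 1 alpha and 1 beta chain that binds matrix proteins or receptors on other cells and couples them to actin through talin and kindlin. Classical cadherins join neighbouring cells by calcium-dependent contacts anchored by catenins, and claudins form the strands of tight junctions that seal or selectively open the space between cells. In the liver, tight junctions separate bile from blood, E- and N-cadherin hold hepatocytes together, and the integrins are shared out among hepatocytes, bile duct cells, endothelial cells, stellate cells and leukocytes. In bulk RNA, fewer cells of a type and less RNA per cell cannot be told apart.

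No member passed an adjusted p of 0.05 (limma with Benjamini-Hochberg adjustment, adjusted p from 0.840 to 1.00). The whole table gave a like picture, since 1 of 17297 genes was called, or 0.00578%. At an unadjusted p under 0.05 there were 4 members of 60, of which Itga10, Itgad and Cldn10 were higher and Itga6 was lower in Blnc1 LKO livers. Over all genes the share was 5.68%, with 2.94% higher and 2.74% lower. The 3 control values and the 3 LKO values did not overlap for 6 members, where Itga1, Itga6, Cldn5 and Cdh9 were lower and Itgad and Cldn10 were higher. Over all genes this held for 10.6%. Scaled by total reads, as in RPKM, 5 members were apart: Itga1, Itga6 and Cdh9 lower, with Itga6 at 1.22 RPKM in both LKO liver 2 and control liver 2, and Cldn10 and Cldn12 higher. Cldn5 and Itgad then overlapped by 1 liver each. The share of all genes apart on that scale was not computed. DESeq2 on the recovered reads called 0 members and 0.538% of the genes it gave an adjusted p. At an unadjusted p under 0.05 it had 4 members, beside 846 of 17297 genes. edgeR called 0 members and had 5 at an unadjusted p under 0.05, beside 968 of 17297 genes. With 3 livers a group, exact permutation of 1 gene reaches a p of 0.1 at best.

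The families were centred close to 0. The median log2 fold change, LKO minus control, was -0.066 for the integrin alpha chains, -0.049 for the beta chains, -0.037 for the cadherins and 0.061 for the claudins, beside -0.0010 over all genes tested. The cadherin median was 0.0011 in edgeR, 0.0028 in DESeq2 and 0.013 when a minimum of 10 reads per liver was set, so its sign depended on the fit. Values below 0 were found for 11 of 18 alpha chains, 5 of 8 beta chains, 9 of 16 cadherins and 6 of 18 claudins, against 50.4% of all genes.

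**Figure D1:**
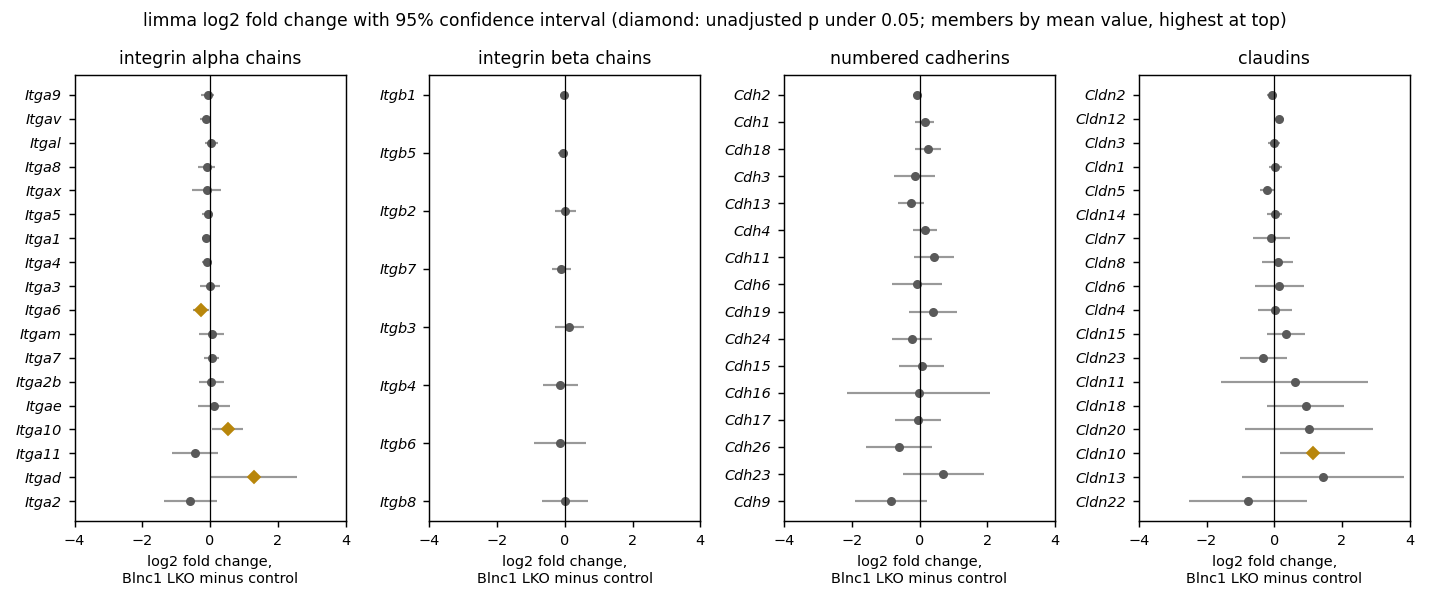
The log2 fold change of each member (x axis, LKO minus control, limma on log2(value + 1)) with its 95% confidence interval, by family and with the highest mean value at the top. Diamonds mark Itga6, Itga10, Itgad and Cldn10, at an unadjusted p under 0.05, and the intervals of all other members include 0.

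The members covered a wide range of levels, with 18 at a mean normalized count of at least 1000 and 23 under 100. In 3 of the 4 families a few genes made up most of the level. Among the beta chains, Itgb1 and Itgb5 made up 84.8% ± 0.620 (SD, n = 3) of the summed RPKM in control livers and 84.3% ± 2.5 in LKO livers. Among the cadherins, with Cdh5 left out, Cdh1 and Cdh2 made up 91.0% ± 0.248 and 91.0% ± 0.848. Among the claudins, Cldn1, Cldn2, Cldn3 and Cldn12 made up 90.1% ± 1.04 and 90.5% ± 0.827. The alpha chains had no such leader. Itgal gave 13.8% ± 0.749 of the sum in control and 14.6% ± 0.167 in LKO livers, and Itga9 gave 13.8% ± 0.291 and 13.6% ± 0.254.

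**Figure D2:**
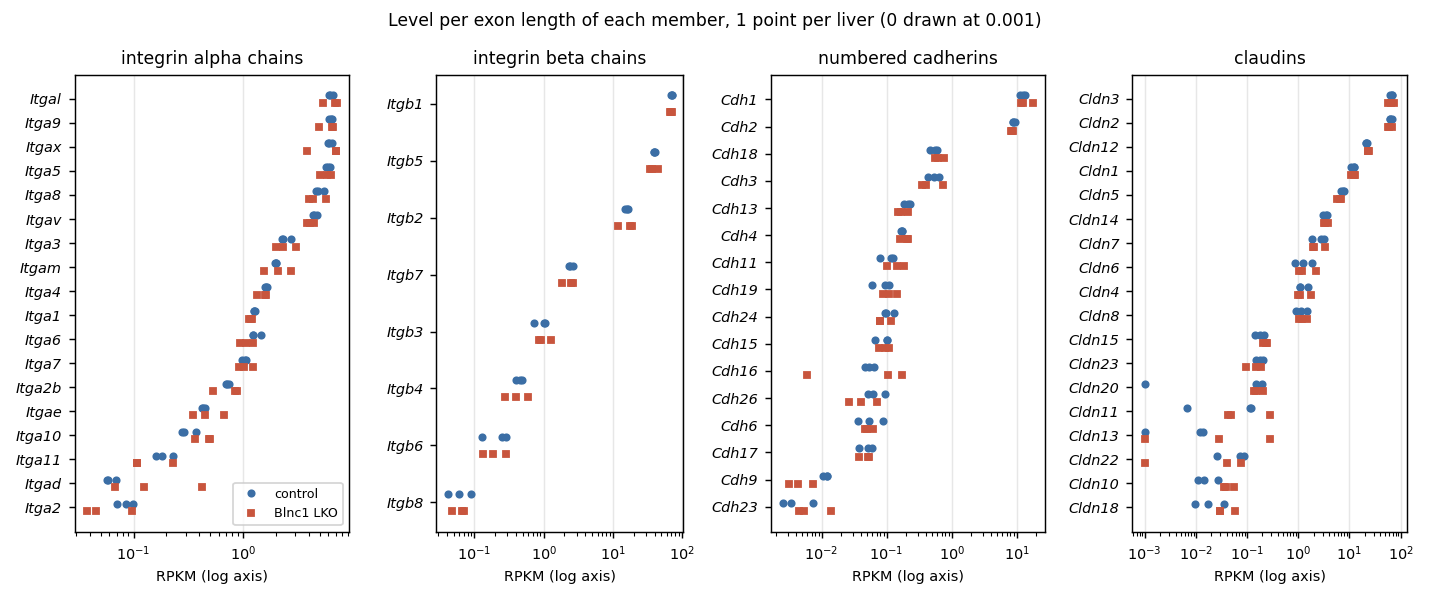
RPKM of each member on a log axis, 1 point per liver (circles control, squares Blnc1 LKO), by family and with the highest level at the top; a level of 0 is drawn at 0.001. Itgb1, Cldn3 and Cldn2 are the highest of all 60, with group means from 61.0 to 71.2 RPKM, and the lowest members, among them Cdh9, Cdh23, Cldn10 and Cldn18, are below 0.1 in every liver.

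A beta chain is needed by every alpha chain to reach the surface. Itgb1, the common partner of matrix receptors in nearly all cells, was at 21139, 21689 and 21893 in control livers and at 21082, 20707 and 21256 in LKO livers. This is 71.2 RPKM against 69.1, the highest mean level per length of all members, and the groups overlapped (log2 fold change -0.04, standard error 0.051). Itgb5, which pairs with Itgav to bind vitronectin, was at 10494, 10634 and 10589 and at 9622, 11200 and 9663. Its controls lay within 1.01-fold of each other while LKO livers 1 and 3 were below and LKO liver 2 above them. Itgb2, the beta chain of the leukocyte integrins, was at 3699, 3576 and 3449 and at 2840, 3832 and 4315. LKO liver 1 was the lowest of all and LKO liver 3 the highest, so that the means, 3575 ± 125 and 3662 ± 752, differed by much less than the LKO spread.

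The other beta chains were lower per length. Itgb7, the second partner of Itga4 on lymphocytes, had means of 509 and 478, and Itgb3, the chain of the platelet fibrinogen receptor, 405 and 446. Itgb4, which joins Itga6 in the hemidesmosomes of epithelia, had 233 and 219. Itgb6 and Itgb8, both partners of Itgav that bind latent TGF-beta, had 117 and 105, and 52.4 and 50.3. None of these 5 had an unadjusted p under 0.05.

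Collagen and laminin receptors held both of the lower alpha chains whose groups were apart. Itga6, a laminin receptor chain found on epithelia and endothelium, was at 822, 817 and 975 in control livers and at 663, 788 and 715 in LKO livers. All 3 LKO values were below all 3 controls, with a log2 fold change of -0.27 (95% interval -0.50 to -0.04, unadjusted p = 0.0251, adjusted p = 0.840, limma). Itga1, a collagen receptor chain of endothelial and mesenchymal cells, was at 1736, 1763 and 1765 and at 1626, 1595 and 1627. The groups were again apart, each within 1.02-fold, by a small difference of -0.12 (standard error 0.053, unadjusted p = 0.0539, adjusted p = 0.879). In the GENCODE annotation of GRCm38 Itga1 shares 685 exon bases with a predicted gene on its own strand, so that some of its reads may have been left out or assigned elsewhere.

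Itga10, a collagen receptor chain best known from cartilage, went the other way. It was at 107, 111 and 145 in control livers and at 199, 133 and 191 in LKO livers. LKO liver 2 lay below control liver 3, so the groups overlapped, while the mean difference was 0.52 on the log2 scale (95% interval 0.07 to 0.97, unadjusted p = 0.0291, adjusted p = 0.840, limma). Here too a predicted gene of the same strand shares 1739 exon bases in the annotation.

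The other receptors of these ligands had no unadjusted p under 0.05. Itga3 and Itga7, laminin receptor chains, had unadjusted p-values of 0.980 and 0.676 in limma. Itga2 and Itga11, the remaining collagen receptor chains, were low, at means of 44.7 and 31.6 and of 73.1 and 55.8. In both, LKO livers 1 and 3 were the lowest of the 6 and LKO liver 2 was within the range of the controls.

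Receptors for fibronectin, tenascin and other RGD ligands were among the highest alpha chains. Itga9, which binds tenascin-C and osteopontin, was at 3481, 3610 and 3695 in control livers and at 2962, 3661 and 3705 in LKO livers. LKO liver 1 was below all controls while LKO livers 2 and 3 were near the upper end of their range, and the difference was -0.07 (standard error 0.087). Itgav, the shared chain of the receptors that activate latent TGF-beta, was at 3510, 3466 and 3771 and at 3175, 3105 and 3558. LKO livers 1 and 2 were below all controls and LKO liver 3 was among them (log2 fold change -0.13, 95% interval -0.28 to 0.03, unadjusted p = 0.0919, adjusted p = 0.921, limma). Itga5, the fibronectin receptor chain, and Itga8, a stellate cell chain that binds nephronectin, had log2 fold changes of -0.06 and -0.10. Of 7 stellate and fibroblast markers, 5 had a log2 fold change below 0. At an unadjusted p under 0.05, 2 were lower and 0 higher, beside 2.74% and 2.94% of all genes. The summed level of the 7 was 96824 to 106169 in control and 82306 to 97408 in LKO livers. Over the 6 livers Itga8 had r = 0.649 with these markers (exact permutation p = 0.185, adjusted 0.594). Without the 2 livers farthest from the median marker level, r was -0.439. The part of these cells in the values of Itga8 was not tested. Itga4, which binds VCAM1, had a log2 fold change of -0.09. Summed over the 12 alpha chains that pair with Itgb1, the alpha RPKM was 0.421 ± 0.00483 of that of Itgb1 in control livers and 0.411 ± 0.0346 in LKO livers.

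Leukocyte and platelet alpha chains spread more among LKO livers than among controls, as did most members with a mean of at least 100. The spread was small for Itgal, at 1.21-fold within LKO livers. Itgal, the LFA-1 chain that binds ICAMs, was at 3226, 2926 and 3036 in control livers and at 2769, 3350 and 3352 in LKO livers. LKO liver 1 was below all controls and LKO livers 2 and 3 were above them. Itgax, the CD11c chain of dendritic cells and macrophages, showed the same order among LKO livers at 1428, 2408 and 2532, beside controls of 2152, 2125 and 2341. Itgam, the CD11b chain of myeloid cells, was at 751, 744 and 740 and at 608, 747 and 1019, although 3450 of its exon bases are shared with a predicted gene. Itga2b, the platelet chain, had means of 290 and 304, with LKO liver 1 again the lowest. The 4 alpha chains that pair with Itgb2 summed to 0.922 ± 0.0470 of its RPKM in control livers and to 0.913 ± 0.0161 in LKO livers, and this ratio was at least 0.888 in all 6. Of 7 macrophage markers, 4 were higher in LKO livers at an unadjusted p under 0.05 (Adgre1, Clec4f, Vsig4 and Marco), with a summed level of 52724 to 60346 in control and 59268 to 68301 in LKO livers. Of 4 platelet markers, 1, Ppbp, was higher, and their sum was 415 to 471 and 374 to 710. Over all genes 2.94% were higher at that threshold. Of 5 T and NK, 4 dendritic and 4 B cell markers, 0 were higher or lower, with median log2 fold changes of -0.19, -0.02 and 0.08. All 5 T and NK markers were below 0. Their sum was 1730, 1305 and 1539 in control livers and 1177, 1795 and 1030 in LKO livers, lowest in LKO liver 3. The part of any of these cell types in the chains was not tested.

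Itgad, the CD11d chain of splenic and other tissue macrophages, was low in all but 1 liver. It shares 330 exon bases with a predicted pseudogene on its own strand. On the opposite strand, which the kit does not tell apart, it shares 388, 102 and 70 bases with other genes. It was at 19.6, 19.2 and 23.4 in control livers and at 23.8, 40.4 and 143 in LKO livers, or 21, 18, 22, 20, 43 and 171 reads. LKO liver 1 stood hardly above control liver 3, and LKO liver 3 stood far above the rest. The log2 fold change was 1.29 (95% interval 0.02 to 2.56, unadjusted p = 0.0477, adjusted p = 0.873, limma), and 0.57 without LKO liver 3. Single genes of blood cells were also highest in that liver: the neutrophil gene S100a8 was at 307, 246 and 142 and at 142, 385 and 1705, and the erythroid gene Hemgn at 2.80, 4.26 and 0 and at 3.57, 4.70 and 58.5. Both were picked after their values were seen. Lists of erythroid precursor and splenic red pulp macrophage genes were likewise written afterwards. Of 8 erythroid genes 2 were higher at an unadjusted p under 0.05, and Hemgn and Rhag were at 0 in control liver 3. The sum of the 8, most of it Alas2, was 7326, 8268 and 9732 in control livers and 10438, 7870 and 8474 in LKO livers, so it was not highest in LKO liver 3. Of 5 red pulp genes 4 were higher at that threshold, as were 2.94% of all genes. The sum of the 5 was 27538, 25135 and 25247 in control livers and 31633, 28176 and 32785 in LKO livers. Among LKO livers it was lowest in liver 2 and close in livers 1 and 3, unlike Itgad. Spic, among the 5, was at 271, 191 and 189 and at 321, 287 and 312. Of the 4 myeloid markers other than Itgam, Ccr2 was lower at an unadjusted p under 0.05, as were 2.74% of all genes. Lyz2, S100a8 and S100a9 had log2 fold changes of 0.05, 1.04 and 1.06 with unadjusted p of 0.587, 0.203 and 0.156 (limma). The sum of the 4 was 30225, 32001 and 31078 and then 30723, 35749 and 32293, with LKO liver 2 the highest. The part of these cells in the Itgad values was not tested. Itgae, which binds E-cadherin on intraepithelial lymphocytes, was at means of 148 and 165 and highest in LKO liver 2.

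**Figure D3:**
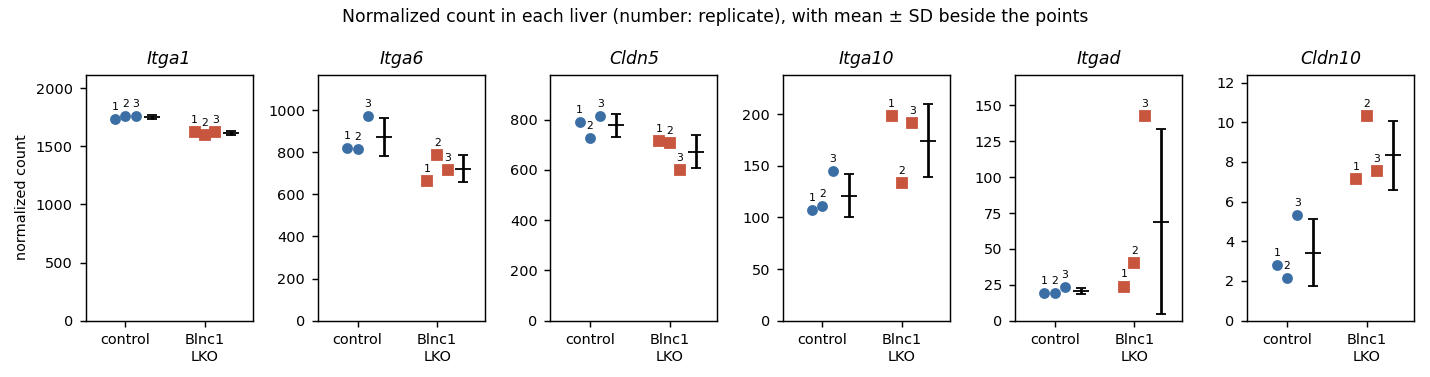
Normalized counts of Itga1, Itga6, Cldn5, Itga10, Itgad and Cldn10 in each liver (points, numbered by replicate) with the mean and SD beside them; each axis starts at 0. Itga1, Itga6 and Cldn5 lie lower and Cldn10 and Itgad higher in all 3 LKO livers, Itga10 overlaps, and Itgad rests on LKO liver 3.

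The partners of the integrins were counted as lists. Of 32 genes for integrin activation and linkage to actin, 1 was lower at an unadjusted p under 0.05, the actin crosslinker Actn4 (log2 fold change -0.16), and 0 were higher. Of 17 ligands measured, 2 were lower and 0 higher at that threshold, which 2.74% and 2.94% of all genes passed. Tnc, which encodes tenascin-C, a ligand of Itga9, was at 806, 884 and 758 in control livers and at 545, 679 and 481 in LKO livers (log2 fold change -0.53, unadjusted p = 0.00278, adjusted p = 0.555, limma). Postn, the matrix protein periostin, was at 3140, 2497 and 2721 and at 1930, 2417 and 1983 (log2 fold change -0.40, adjusted p = 0.658). Itga9, Itgav and Itgb5, chains of receptors for such ligands, gave smaller values, at -0.07, -0.13 and -0.06. This did not hold for every chain that binds matrix, with -0.58 for the low Itga2, -0.27 for Itga6 and 0.14 for Itgb3.

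With Cdh5 left out, E- and N-cadherin had the highest levels per length of the cadherins. Cdh1, E-cadherin, was at 3830, 4280 and 4517 in control livers and at 4155, 5764 and 4252 in LKO livers. LKO liver 2 stood above the other 5 and the remaining LKO livers lay among the controls (log2 fold change 0.15, 95% interval -0.13 to 0.44). Cdh2, N-cadherin, was at 5225, 5536 and 5332 and at 5312, 5037 and 4996, a difference of -0.07 (standard error 0.052). Per length Cdh1 was higher than Cdh2 in every liver, with a ratio of 1.29, 1.36 and 1.49 in control livers and of 1.38, 2.02 and 1.5 in LKO livers. The group means of this ratio, 1.38 ± 0.102 and 1.63 ± 0.339, differed by less than the LKO spread.

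Cdh18, a neuronal cadherin, was the third highest per length with Cdh5 left out. It was at 204, 186 and 159 in control livers and at 269, 203 and 188 in LKO livers, with overlap of the groups (log2 fold change 0.25, standard error 0.17). Cdh3, P-cadherin of epithelia, had means of 174 and 163, and Cdh13, the membrane-anchored T-cadherin of vessels, 173 and 147. The other 11 cadherins had means over all livers under 100, among them Cdh4 at 92.5 and 104 and the mesenchymal Cdh11 (log2 fold change 0.42, standard error 0.26). Cdh9 was the cadherin whose groups did not overlap, but on 3, 3 and 3 reads in control livers and 1, 2 and 1 in LKO livers. Cdh16, a kidney cadherin, spread over 27.6-fold within LKO livers, from 1.67 in liver 3 to 46.0 in liver 2. Cdh6, Cdh15, Cdh17, Cdh19, Cdh23, Cdh24 and Cdh26 had unadjusted p-values from 0.19 to 0.887.

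The cadherin-catenin and nectin partners gave 20 measured genes, of which 15 had a log2 fold change below 0, 3 were lower at an unadjusted p under 0.05 and 0 were higher, beside 50.4% of all genes below 0 and 2.74% lower at that threshold. Ctnna1, alpha-catenin, which links cadherins to actin, was at 15159, 15389 and 15421 in control livers and at 13938, 14487 and 13848 in LKO livers (log2 fold change -0.12, adjusted p = 0.857, limma). The others were the desmosome proteins Pkp2 (-0.16) and Dsp (-0.17). The groups did not overlap for Ctnna1 or Dsp, as for 10.6% of all genes, and the list's median was -0.058.

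Claudins had the highest summed level per length of the 4 families, at 181 ± 4.92 RPKM in control and 180 ± 17.0 in LKO livers, against 131 ± 1.03 and 128 ± 10.6 for the beta chains. Cldn2, the pore-forming claudin of hepatocytes, was at 15400, 16726 and 15147 in control livers and at 14916, 15823 and 14567 in LKO livers. Cldn3, a sealing claudin, was at 6358, 6301 and 5932 and at 5534, 6830 and 6160. Both overlapped, with log2 fold changes of -0.06 and -0.01. Per length Cldn3 and Cldn2 were side by side, at 66.3 and 63.8 RPKM in control livers, and did not differ beyond their spread.

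Cldn12, a claudin without the usual cytoplasmic binding motif, was at 6513, 6757 and 7024 in control livers and at 8076, 6948 and 7227 in LKO livers. LKO livers 1 and 3 were above all controls and LKO liver 2 was among them (log2 fold change 0.13, 95% interval -0.02 to 0.28, unadjusted p = 0.0851, adjusted p = 0.905, limma). Cldn1, which seals the bile canaliculus, had means of 4212 ± 291 and 4292 ± 434. Cldn14 had 544 ± 46.2 and 547 ± 34.0, and its log2 fold change of 0.01 had a 95% interval of -0.21 to 0.23.

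Cldn5, the claudin of endothelial tight junctions, was at 789, 728 and 816 in control livers and at 714, 706 and 598 in LKO livers. All LKO values lay below the controls on this scale, though not in RPKM, with a log2 fold change of -0.21 (95% interval -0.42 to 0.00, unadjusted p = 0.0515, adjusted p = 0.876, limma). Endothelial markers gave a divided picture beside it and beside Itga6 and Itga1. Pecam1 was at 2882, 2864 and 3038 and at 2523, 2619 and 2692, and Cdh5 at 3342, 3291 and 3412 and at 3016, 3049 and 3020. So 2 of the 6 markers were lower at an unadjusted p under 0.05, as were 2.74% of all genes. Kdr, Tek, Stab2 and Clec4g, the last 2 being sinusoidal genes, had log2 fold changes of -0.03, -0.06, 0.06 and 0.02. The summed level of the 6 was 21547 to 22389 in control livers and 21225 to 22072 in LKO livers. Over the 6 livers, Cldn5, Itga6 and Itga1 had r = 0.60, 0.52 and 0.75 with these markers (exact permutation p = 0.22, 0.28 and 0.12, adjusted 0.63, 0.76 and 0.52). Without the 2 livers farthest from the median marker level, r was -0.21, -0.47 and 0.47. The part of endothelial cells in the values of Cldn5, Itga6 and Itga1 was not tested.

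The remaining claudins were low or scattered. Cldn10, a pore-forming claudin of secretory epithelia, was at 2.80, 2.13 and 5.33 in control livers and at 7.14, 10.3 and 7.52 in LKO livers, or 3, 2, 5, 6, 11 and 9 reads. The groups did not overlap, with a log2 fold change of 1.13 (95% interval 0.16 to 2.10, unadjusted p = 0.0275, adjusted p = 0.840, limma), on counts that leave little precision. Cldn13 was at 0.932, 1.07 and 0 and at 2.38, 0 and 22.6, that is 27 reads in LKO liver 3 against at most 2 in any other. Cldn22 lies wholly within exons of Wwc2 on the opposite strand, 995 bases, and with a kit that keeps no strand its 0 to 6 reads cannot be told from those of Wwc2. Cldn11, Cldn15, Cldn18, Cldn20 and Cldn23 had means under 40 in both groups, with unadjusted p-values from 0.0961 to 0.539.

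Of 23 tight junction partners measured, 2 were lower at an unadjusted p under 0.05, as were 2.74% of all genes, and 0 were higher. They were Cgn, cingulin, which ties junctions to myosin, at 1744, 1857 and 1981 in control livers and at 1508, 1598 and 1765 in LKO livers, and Cxadr, a junction-associated adhesion protein (log2 fold changes -0.20 and -0.16). The median of the list was -0.049.

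Livers within the LKO group varied more than those within the control group. Among the 37 members with a mean of at least 100, the ratio of the highest to the lowest liver had a median of 1.12 within control and of 1.36 within LKO livers. It was wider within LKO livers for 29 of the 37, or 78.4%, beside 71.4% of all 12488 genes with such a mean, whose medians were 1.09 and 1.16. LKO liver 1 was the lowest of the 6 for 16 of these members and LKO liver 2 the highest for 12. This was not counted over all genes, so it cannot be read as particular to the members.

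The epithelial members Cldn4, Cldn6, Cldn7, Cldn8, Cdh3 and Itgb4 were highest in control liver 3 and LKO liver 2, and were picked for this after their values were seen. Cldn6 was at 112, 161 and 236 in control livers and at 161, 271 and 135 in LKO livers, and Cldn7 at 267, 397 and 467 and at 294, 466 and 300. All 6 bile duct markers had the same 2 livers at the top, with Krt19 at 369, 408 and 593 and at 396, 622 and 388, and Epcam at 1020, 1205 and 1623 and at 1051, 1569 and 1172. Of 6 such markers, 0 differed between the groups at an unadjusted p under 0.05. The mean log2 deviation of the 6 from their own mean over livers was -0.22, -0.03 and 0.29 in control livers and -0.16, 0.30 and -0.19 in LKO livers. Their summed level was 61274 to 73256 in control and 48875 to 73431 in LKO livers.

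**Figure D4:**
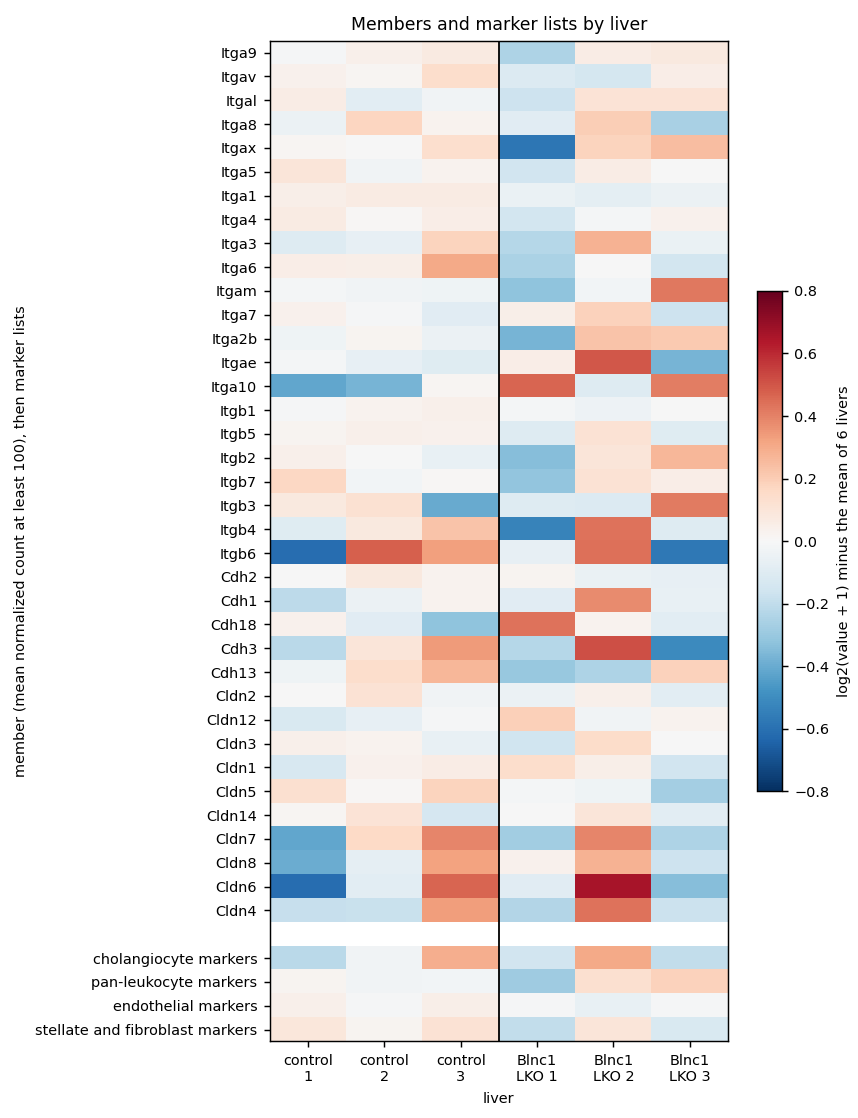
Log2(value + 1) minus the mean of the 6 livers (colour) for the 37 members with a mean of at least 100, with 4 marker lists at the bottom as the mean of their genes. The epithelial rows Cldn4, Cldn6, Cldn7 and Cdh3 are red in control liver 3 and LKO liver 2 like the cholangiocyte markers, and Itgb2 and Itgax are blue in LKO liver 1 like the pan-leukocyte markers.

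These likenesses were measured over 6 livers for the 37 members and 4 marker lists, 148 relations in all, of which 20 had an exact permutation p under 0.05 and 0 an adjusted p under 0.05. They were not computed over all genes, so the values below cannot be read as particular to the members. The closest to the cholangiocyte markers was Cldn6, with a Pearson r of 0.956 (exact permutation p = 0.00139, adjusted 0.103) and a Spearman rho of 1 (exact permutation p = 0.00278, adjusted 0.206). Without the 2 livers farthest from the median marker level, its r was 0.746. Cdh1 had r = 0.810 (exact permutation p = 0.00417, adjusted 0.154) and rho = 0.943 (exact permutation p = 0.0167, adjusted 0.493), and r = 0.619 without those livers. Cldn7 had r = 0.955 (exact permutation p = 0.00556, adjusted 0.164) and rho = 0.886 (exact permutation p = 0.0333, adjusted 0.548), and 0.970 without those livers. For Cldn4 the r of 0.955 (exact permutation p = 0.0389, adjusted 0.339, with rho = 0.714, exact permutation p = 0.136, adjusted 0.650) was 0.062 without them and so rested on them. Closest to the stellate and fibroblast markers by p was Itga6, with r = 0.871 (exact permutation p = 0.00694, adjusted 0.171) and rho = 0.829 (exact permutation p = 0.0583, adjusted 0.617). Its r was 0.479 without the 2 livers farthest for that list.

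The leukocyte chains were set beside the pan-leukocyte markers Ptprc, Coro1a, Laptm5 and Cd52. The mean log2 deviation of these markers was 0.02, -0.03 and -0.02 in control livers and -0.28, 0.13 and 0.18 in LKO livers. Itgb2 had r = 0.981 (exact permutation p = 0.00278, adjusted 0.137) and rho = 0.943 (exact permutation p = 0.0167, adjusted 0.493), and r = 0.891 without the 2 farthest livers. Itgal had r = 0.937 (exact permutation p = 0.00139, adjusted 0.103) and rho = 1 (exact permutation p = 0.00278, adjusted 0.206), and r = 0.907 without them. Itgax (r = 0.944, exact permutation p = 0.00972, adjusted 0.180, and rho = 0.943, exact permutation p = 0.0167, adjusted 0.493) was at r = 0.621 without them. Itgam (r = 0.861, exact permutation p = 0.0444, adjusted 0.339, and rho = 0.886, exact permutation p = 0.0333, adjusted 0.548) was at 0.458. Itgae had r = -0.072 (exact permutation p = 0.893, adjusted 0.986) and rho = -0.257 (exact permutation p = 0.658, adjusted 0.960), although its r was 0.977 without those livers. Chains of other kinds were also close to these markers. The platelet chain Itga2b had r = 0.972 (exact permutation p = 0.0139, adjusted 0.228), and 0.888 without the 2 farthest livers. Itga9 had r = 0.875 (exact permutation p = 0.0458, adjusted 0.339), and 0.087 without them. For these exact tests 0.00139 is the smallest p that r can give and 0.00278 the smallest for rho. The 2 groups hold too few livers for a value within each. Of the 4 pan-leukocyte markers, 0 differed between the groups at an unadjusted p under 0.05, with a summed level of 16403 to 17155 in control and 13651 to 19200 in LKO livers.

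**Figure D5:**
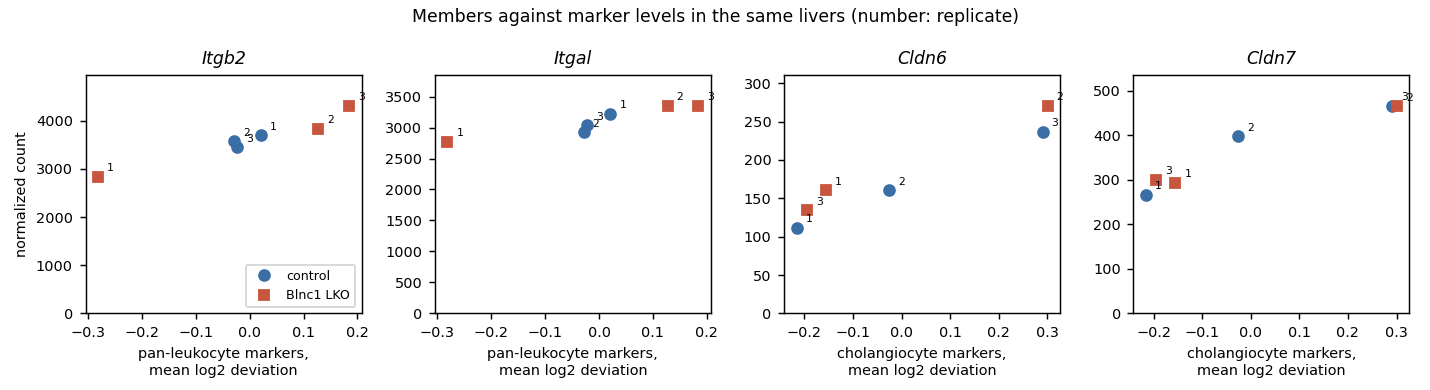
Normalized counts (y axis, from 0) of Itgb2 and Itgal against the mean log2 deviation of pan-leukocyte markers, and of Cldn6 and Cldn7 against that of cholangiocyte markers, in the 6 livers (circles control, squares LKO, numbered by replicate). LKO liver 1 is lowest on both axes for Itgb2 and Itgal, and LKO liver 2 and control liver 3 are the 2 rightmost for Cldn6 and Cldn7.

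Promoters of the claudins that varied together across livers are shown with that of Cldn3, the much more abundant neighbour of Cldn4 on chromosome 5 that did not follow them (r = 0.348 with the cholangiocyte markers, exact permutation p = 0.518, adjusted 0.912, and rho = 0.143, exact permutation p = 0.803, adjusted 0.966, with r = 0.087 without the 2 farthest livers). Sequences are from RefSeq on GRCm38.p6, 300 bases around each start site, 5′ to 3′ on the strand of the gene. Capitals mark the GC box GGGCGG, searched on both strands and here present as its reverse complement. The windows are chr5:134946885-134947184 (minus strand) for Cldn4, chr17:23679115-23679414 (plus) for Cldn6, the second of 2 start sites of Cldn7 at chr11:69965171-69965470 (plus), and chr5:134985964-134986263 (plus) for Cldn3.
Cldn4: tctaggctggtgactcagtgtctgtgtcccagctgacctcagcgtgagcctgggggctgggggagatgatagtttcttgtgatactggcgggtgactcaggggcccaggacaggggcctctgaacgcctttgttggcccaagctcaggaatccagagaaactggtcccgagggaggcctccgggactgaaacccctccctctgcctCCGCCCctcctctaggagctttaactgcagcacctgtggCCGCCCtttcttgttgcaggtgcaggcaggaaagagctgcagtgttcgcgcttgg
Cldn6: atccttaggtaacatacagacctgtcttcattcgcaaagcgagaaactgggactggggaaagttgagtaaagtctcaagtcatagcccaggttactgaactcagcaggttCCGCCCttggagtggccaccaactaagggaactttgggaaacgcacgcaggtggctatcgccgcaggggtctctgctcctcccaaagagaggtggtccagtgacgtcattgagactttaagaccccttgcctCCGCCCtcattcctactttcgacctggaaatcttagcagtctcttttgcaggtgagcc
Cldn7: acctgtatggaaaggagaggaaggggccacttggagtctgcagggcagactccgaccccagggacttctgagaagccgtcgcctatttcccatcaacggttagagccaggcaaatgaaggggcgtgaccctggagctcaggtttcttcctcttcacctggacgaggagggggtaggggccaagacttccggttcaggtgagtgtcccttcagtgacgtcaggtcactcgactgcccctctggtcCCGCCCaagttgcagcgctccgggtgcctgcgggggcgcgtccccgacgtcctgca
Cldn3: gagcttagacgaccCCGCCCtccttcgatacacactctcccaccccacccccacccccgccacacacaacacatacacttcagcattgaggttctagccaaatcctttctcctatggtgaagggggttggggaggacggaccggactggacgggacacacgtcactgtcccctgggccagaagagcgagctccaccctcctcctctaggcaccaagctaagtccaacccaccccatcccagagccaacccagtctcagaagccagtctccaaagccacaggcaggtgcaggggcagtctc

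In this window Cldn4 and Cldn6 held 2 matches each, and Cldn7 and Cldn3 held 1 each. The match nearest the start site began 5 bases upstream in Cldn4, 8 in Cldn6 and 6 in Cldn7, while that of Cldn3 began 236 bases upstream. The window at the other start site of Cldn7 held 0 matches. Claudins outside the set held a GC box near a start site as well, at 14 bases upstream in Cldn1 and at 13 in 1 window of Cldn12. RefSeq windows were found for 40 of the 60 member genes, 49 windows in all. The GC box was in 23 of the 49, beside 35.7% of 32851 windows of the same length. The ETS core AGGAAG was in 19 of the 49 (35.4% of all), the AP-1 motif TGANTCA in 5 (7.81%), and the TATA motif TATAAA in 1, that of Cldn2 (13.6%). These motifs were chosen after others had been searched and had few matches, and a match is a description of letters that says nothing of binding.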

How the data were processed

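PolyA-selected RNA from 3 control and 3 Blnc1 LKO livers was sequenced with an Illumina TruSeq v2 kit, which keeps no strand. The authors aligned reads to mm10 with STAR and counted them per gene with HTSeq; versions and the gene annotation are not given in the sources used here. The deposited values are a signal: read numbers per gene after division by each liver's size factor. Dividing a column by its smallest value above 0 gave whole numbers for 100% of values (tolerance 0.01), which recovered the reads. Columns named wild type and knockout were matched to the control and LKO samples of that number, and 0 columns were left without a sample. The table holds 23 symbols that a spreadsheet turned into dates.

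The deposited unit is not raw counts, so limma (version 3.58.1, R 4.3.3; lmFit and eBayes with a trend) was fitted to log2(value + 1), without covariates, over 17297 genes that reached 1 in 3 or more livers; the Benjamini-Hochberg adjustment ran over all of them, with calls at 0.05. Log2 fold changes refer to log2(value + 1), so those of low genes are understated. Alternatives were edgeR (4.0.16) and DESeq2 (1.42.0) on the recovered reads, a pseudocount of 0.1, no filter, at least 10 reads in every liver, scaling by total reads, a block for the replicate number, and each liver left out. The fits were tested on simulated counts with planted changes larger than the log2 fold changes of most members. That test does not tell how small a change they can find. RPKM used merged exon lengths of GENCODE on GRCm38. In that annotation Itga4, Itgav, Itgb4 and Itga8 share 1124, 634, 537 and 372 exon bases with genes on the opposite strand. A kit that keeps no strand cannot separate reads there. Marker relations used exact permutation tests, two-sided.

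Values in every liver are given for members at an unadjusted p under 0.05, for the 3 highest of each family, and for members of mean at least 100 whose groups did not overlap; others named with such values were chosen after these were seen. The members and lists were chosen with earlier results of these data known.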

Additional observations from a re-analysis of the deposited data

How the results depend on the processing

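In every alternative 0 members were called. Over all genes the calls were 1 in limma, 2 in edgeR, 84 in DESeq2, 2 with no filter, 0 under the replicate block and 0 to 13 with 1 liver left out. Members at an unadjusted p under 0.05 were 4 in limma, 2 of the 50 that had at least 10 reads in every liver, and 1 to 9 with 1 liver left out, the lowest without control liver 1 and the highest without LKO liver 2. Without LKO liver 1 they were 7, without LKO liver 3 4, and without control livers 2 and 3 they were 3 and 2. The count over all genes moved as well. It was 983 of 17297 in limma and 816 of 14562 with at least 10 reads in every liver. Without control livers 1, 2 and 3 it was 660 of 17201, 784 of 17090 and 667 of 17104. Without LKO livers 1, 2 and 3 it was 976 of 17095, 1833 of 17150 and 946 of 17134. With a liver left out, family medians ran from -0.105 to 0.0337 for alpha chains, -0.103 to 0.0659 for beta chains, -0.0751 to 0.121 for cadherins and -0.0611 to 0.175 for claudins, so that the sign of each family median depended on single livers, and that of the cadherins also on the tool (0.0011 in edgeR). The log2 fold change of 29 of the 60 members changed sign with a liver left out, and that of Cdh16, Itga3 and Itgb8 in another alternative (Cdh16 0.74 in edgeR). Of the 18 members followed in full, sign changes were those of Cldn3 (-0.0852 to 0.0666), Itgb2 (-0.115 to 0.187), Itga9 (-0.126 to 0.0352) and Itgal (-0.00653 to 0.131). The unadjusted p stayed under 0.05 for Itga6 in 10 of 13 alternatives, Itga10 in 9, Itgad in 6 and Cldn10 in 6 of 12. The cause of these changes was not tested.

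The replicate numbers did not pair the livers: deviations of same-numbered livers correlated at -0.05, 0.02 and -0.17 over 14562 genes. With the replicate block, 3 members had an unadjusted p under 0.05, beside 912 of 17297 genes. Some claudins and cadherins had under 20 reads a liver, and the smallest difference that 3 livers a group can show was not measured.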
